A study of Mus musculus with 2 samples.

Results

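Wnt proteins are secreted, lipid-modified signals that act over short distances. The 49 genes described here encode the Wnt ligands, their Frizzled receptors, the co-receptors Lrp5 and Lrp6, the alternative receptors Ror1, Ror2 and Ryk, the R-spondins with their Lgr receptors, and the secreted inhibitors of the Sfrp and Dkk families. The rule that took them used symbols alone and no measured value, though it was chosen with earlier results of these data known. It took every mouse symbol that is a Wnt, an Fzd, Sfrp1 to Sfrp5, Dkk1 to Dkk4 or Rspo1 to Rspo4. It also took Lrp5, Lrp6, Lgr4, Lgr5, Lgr6, Ror1, Ror2 and Ryk. The choice gave 49 of 43346 gene rows: 19 ligands, 10 Frizzled receptors, 5 co-receptors or alternative receptors, 4 R-spondins, 3 Lgr receptors, 4 Sfrp genes and 4 Dkk genes.

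Total RNA of the mouse neural tube at embryonic day 14.5 was sequenced in 2 libraries of 1 group, from the B6NCrl strain, with 10 ng of RNA in each and no treatment given in the labels. Replicate 1 came from a pup of the first pregnant female and replicate 2 from a pup of the second. The labels describe a single tube for each and also give the sex as pooled. With 1 group of 2 libraries no contrast between conditions exists, so levels are given for each library, with the mean ± SD over both (n = 2), and a ratio between the libraries describes only these 2 libraries and carries no p-value. Levels are in TPM, a measure of abundance that is scaled for transcript length and so can be compared between genes.

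In the canonical branch of the pathway, a Wnt bound to a Frizzled and to Lrp5 or Lrp6 stops the breakdown of beta-catenin, which then acts with TCF and LEF factors on target genes. Other branches run through Frizzled receptors, Ror1, Ror2 or Ryk and steer cell polarity and growing axons. In the embryonic spinal cord, Wnts of the dorsal midline are known for the growth and patterning of dorsal progenitors, and Wnt7a and Wnt7b for the growth of blood vessels into the neural tissue.

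Facts of the libraries bear on what follows. Gene rows held 32255343 counts in replicate 1 and 25428728 in replicate 2. Neuron markers summed to 4920.56 and 4791.43 TPM and neural progenitor markers to 2442.33 and 2664.08 TPM in replicates 1 and 2, so both libraries carried neural tissue. These general markers do not tell the neural tube from other neural tissue. Markers of meninges, dorsal root ganglion, Schwann cells and endothelium were higher in replicate 2 and those of skeletal muscle in replicate 1, with values given after the ratios of Wnt6, Sfrp5 and the other members. Xist was at 70.78 TPM in replicate 1 and 0.05 in replicate 2, while Ddx3y, Eif2s3y, Kdm5d and Uty were at 0.02 TPM or less in replicate 1 and between 19.71 and 45.93 in replicate 2. By these genes replicate 1 was female and replicate 2 male, and neither looked like a mix of sexes, unlike the label of pooled sex. Sex and library therefore cannot be told apart.

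Of the 49 genes, 27 reached 1 TPM in both libraries and 14 in neither. The other 8 passed that level in replicate 2 but not in replicate 1, and 0 did the reverse. Across all gene rows 34.7% reached 1 TPM in both libraries, and among protein-coding rows 60.8% did. The 8 genes with 1 TPM only in replicate 2 were Wnt6, Wnt9a, Wnt11, Ror1, Ror2, Lrp5, Sfrp5 and Dkk2. Over all gene rows, 901 passed only in replicate 2 and 778 only in replicate 1. The highest of the 49 were Sfrp2 and Fzd3, an extracellular inhibitor and a receptor, and both lay above every ligand in each library.

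**Figure D1:**
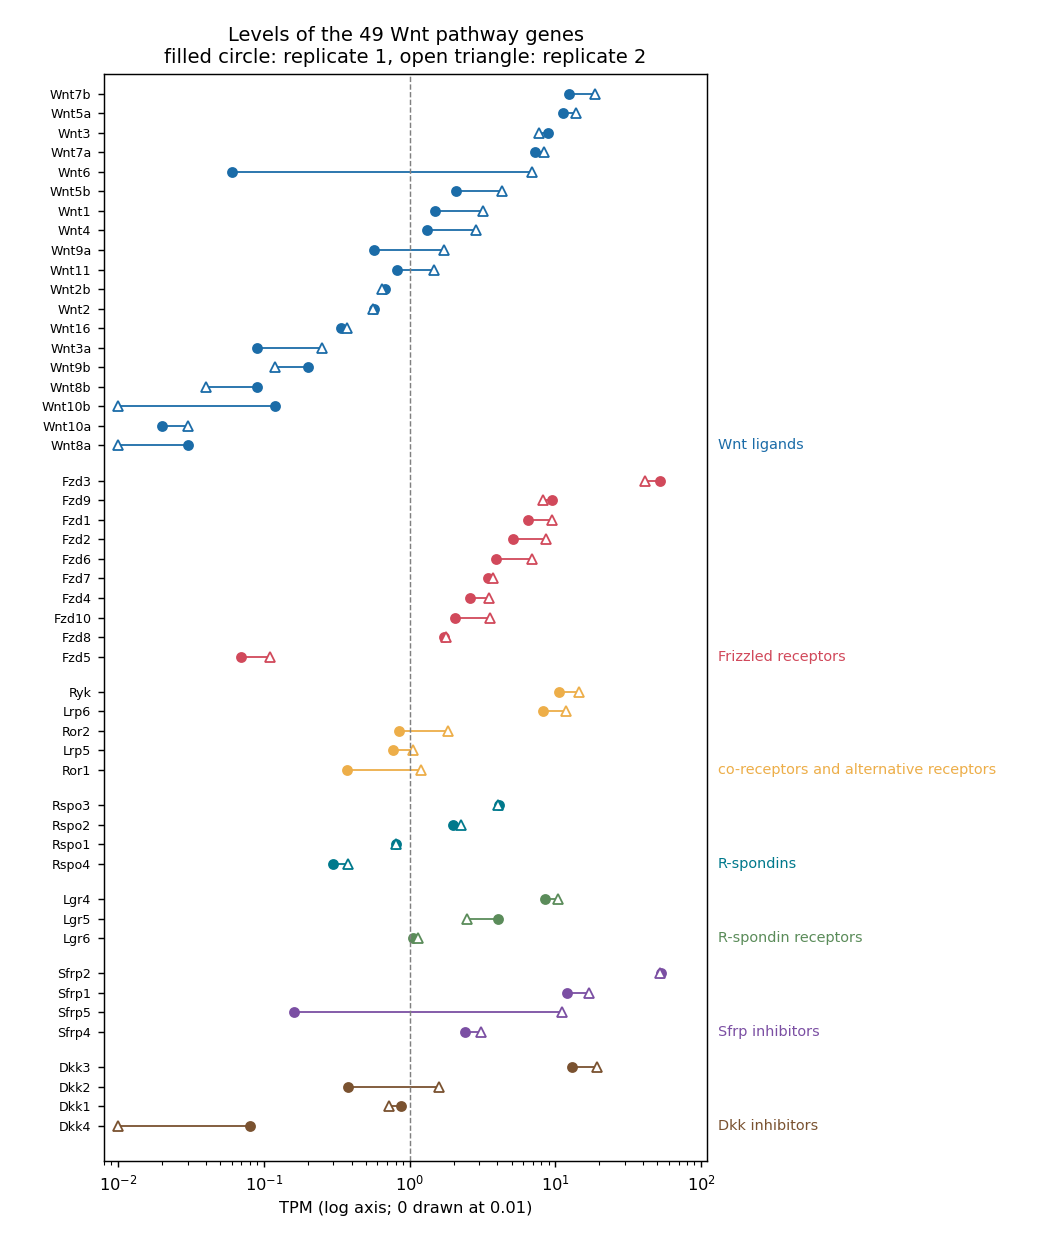
TPM of each of the 49 genes on a log axis, grouped by role, with replicate 1 as filled circles and replicate 2 as open triangles; the dashed line is 1 TPM and values of 0 are drawn at 0.01. Sfrp2 and Fzd3 lie furthest to the right, and the longest lines among genes above 1 TPM in either library join the 2 values of Wnt6 and Sfrp5.

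Among the ligands, 4 carried most of the signal. Wnt7b, a ligand of neural tissue that acts on its vessels, had 12.45 TPM in replicate 1 and 18.77 in replicate 2 (15.6 ± 4.47). Wnt5a, which acts mostly outside the beta-catenin branch and guides axons, had 11.2 and 13.77 TPM (12.5 ± 1.82). Wnt3 had 8.87 and 7.76 TPM (8.32 ± 0.785), and Wnt7a, the close relative of Wnt7b, had 7.28 and 8.37 TPM (7.83 ± 0.771). The ranges of Wnt7b and Wnt5a overlapped, as did those of Wnt3 and Wnt7a, but the lowest value of Wnt5a lay above the highest of Wnt3. Together these 4 ligands made up 82.5% of the summed ligand TPM in replicate 1 (39.8 of 48.26) and 68.5% in replicate 2 (48.67 of 71.06).

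A second tier of ligands lay between 1 and 5 TPM in both libraries. Wnt5b, a relative of Wnt5a, had 2.07 and 4.3 TPM, and Wnt4 had 1.31 and 2.85 TPM. Wnt1, the classic ligand of the dorsal midline, had 1.49 and 3.17 TPM. In each of these 3 genes the value of replicate 2 was the higher. Wnt3a, which the dorsal midline also expresses at earlier stages, was near the limit of detection with 5 and 10 counts (0.09 and 0.25 TPM). Of 8 genes listed for the roof plate, Wnt1 and Wnt3a among them, 4 reached 1 TPM in both libraries. Zic1 (24.16 and 23.47 TPM) and Msx1 (9.34 and 10.2), which dorsal progenitors share, were close in the libraries, and Bmp6 had 1.09 and 3.7 TPM. Msx2 (0.35 and 0.62 TPM) and the more specific roof plate genes Lmx1a (0.2 and 0.45) and Gdf7 (0.34 and 0.05) stayed under 1 TPM in both.

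The remaining ligands were at or under 1 TPM in at least 1 library. Wnt9a had 0.57 and 1.72 TPM and Wnt11 0.82 and 1.46 TPM. Wnt2b (0.68 and 0.65), Wnt2 (0.57 and 0.56) and Wnt16 (0.34 and 0.37) stayed under 1 TPM at close values in both libraries. Wnt9b had 18 and 8 counts, Wnt8b 6 and 2, and Wnt10a 1 and 1. Wnt10b, with 5 and 0 counts, and Wnt8a, with 1 and 0, had no count in replicate 2, which allows up to 3 counts in that library. At this depth Wnt8b, Wnt10a, Wnt10b and Wnt8a, with at most 6 counts in a library, cannot be told from genes that the tissue does not express.

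Pairs of Wnt genes that lie side by side in the genome were at unlike levels. Wnt3 and Wnt9b, 24328 bases apart on chromosome 11 in GRCm38 and transcribed away from each other, had 8.87 and 0.2 TPM in replicate 1 and 7.76 and 0.12 in replicate 2. Wnt1 and Wnt10b, 11706 bases apart on chromosome 15, had 1.49 and 0.12 TPM in replicate 1 and 3.17 and 0 in replicate 2. Wnt9a and Wnt3a, 16175 bases apart on chromosome 11, had 0.57 and 0.09 TPM in replicate 1 and 1.72 and 0.25 in replicate 2. The fourth pair, Wnt6 and Wnt10a, 6193 bases apart on chromosome 1 and on the same strand, had 0.06 and 0.02 TPM in replicate 1 and 6.87 and 0.03 in replicate 2. In the first 3 pairs the first gene named was the higher in both libraries. Wnt6 and Wnt10a had 1 count each in replicate 1, so no order can be read there, and the high value of Wnt6 in replicate 2 had no counterpart in Wnt10a.

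Frizzled receptors are the seven-pass membrane proteins that bind Wnts. Fzd3, which axon tracts need for their guidance, was far above the other Frizzled genes (chromosome 14, 65192449 to 65262463, GRCm38), with 52.28 TPM in replicate 1 and 40.87 in replicate 2 (46.6 ± 8.07). It held 60% of the summed Frizzled TPM in replicate 1 and 47.1% in replicate 2. Fzd9 (9.49 and 8.19 TPM), Fzd1 (6.5 and 9.47), Fzd2 (5.11 and 8.6) and Fzd6 (3.9 and 6.95) followed, and the range of each overlapped that of the next. Fzd7 had 3.43 and 3.71 TPM, Fzd4, the receptor for Norrin, 2.6 and 3.52, Fzd10 2.04 and 3.58 and Fzd8 1.72 and 1.77. Fzd5 was the exception, with 9 and 11 counts and at most 0.11 TPM. The summed Frizzled level was 87.14 TPM in replicate 1 and 86.77 in replicate 2. By sequence subfamily, Fzd3 with Fzd6 summed to 52.0 ± 5.91 TPM, Fzd1 with Fzd2 and Fzd7 to 18.4 ± 4.77, Fzd4 with Fzd9 and Fzd10 to 14.7 ± 0.82, and Fzd5 with Fzd8 to 1.84 ± 0.0636.

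Of the co-receptors, Lrp6 was the main transcript and Lrp5 stood near 1 TPM. Lrp6 had 8.26 and 11.77 TPM (10.0 ± 2.48) and Lrp5 0.77 and 1.05 (0.91 ± 0.198), with no overlap of their ranges. Ryk, a Wnt receptor with an inactive kinase domain, had 10.51 and 14.41 TPM (12.5 ± 2.76). The receptor tyrosine kinases Ror2 (0.84 and 1.83 TPM) and Ror1 (0.37 and 1.19 TPM) passed 1 TPM in replicate 2 alone.

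R-spondins strengthen Wnt signals by binding Lgr receptors and so removing the ubiquitin ligases Znrf3 and Rnf43 from the cell surface. Rspo3 had 4.11 and 4.05 TPM and Rspo2 1.97 and 2.26 TPM, while Rspo1 (0.8 and 0.81) and Rspo4 (0.3 and 0.38) stayed under 1 TPM. With TMM scaling of the counts, which assumes that most genes do not differ, the R-spondins had log2 ratios from -0.12 to 0.23 and counting intervals that held a ratio of 1 in all 4 genes. Lgr4, the broadly expressed receptor, had 8.53 and 10.41 TPM, Lgr5, a target of the pathway, 4.03 and 2.47, and Lgr6 1.06 and 1.14. Their order was the same in both libraries, with no overlap of neighbouring ranges.

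Sfrp proteins resemble the Wnt-binding domain of Frizzled and hold Wnts outside the cell. Sfrp2 was the highest of all 49 genes by mean (chromosome 3, 83766321 to 83774316, GRCm38), with 53.16 TPM in replicate 1 and 51.87 in replicate 2 (52.5 ± 0.912), and it differed little between the libraries. Sfrp1 had 12.03 and 16.95 TPM and Sfrp4 2.41 and 3.1. Sfrp5 had 0.16 TPM in replicate 1 and 11.02 in replicate 2, so it was the lowest Sfrp gene in one library and the third in the other.

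Dkk proteins act at Lrp5 and Lrp6, except for Dkk3, a divergent member that does not act as a typical Wnt inhibitor. Dkk3 held 90.8% of the summed Dkk TPM in replicate 1 and 89.3% in replicate 2, with 13.1 and 19.23 TPM (16.2 ± 4.33). Dkk1, the classic Lrp6 antagonist and a target of the pathway, had 0.87 and 0.72 TPM. Dkk2 had 0.38 and 1.58 TPM, and Dkk4 2 and 0 counts.

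The reads of the libraries were next set against each other gene by gene. The ratio of replicate 2 to replicate 1 was taken from counts scaled by TMM for the 43 members that averaged 10 counts or more. Square brackets give the exact 95% Clopper-Pearson interval, which covers counting error only. Of the 43, 14 were at least 1.5-fold higher in replicate 2 and 1 at least 1.5-fold higher in replicate 1, and among 17623 gene rows with as many counts these shares were 10.8% and 8.75%. At 2-fold, 7 were higher in replicate 2 and 0 in replicate 1, beside 5.68% and 3.25% of gene rows. With spike-in RNA as the scale in place of TMM, which moves every log2 ratio up by 0.55, 29 were at least 1.5-fold higher in replicate 2 and 0 in replicate 1. The median log2 ratio was 0.34 over the 43 genes and -0.01 over all 17623. Low counts widen such ratios: of 17 members with a mean count from 10 to under 100, 7 were at least 1.5-fold higher in replicate 2, where 21.5% of genes of like count were, and of 22 from 100 to under 1000, 7 were, where 11.7% of genes were.

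**Figure D2:**
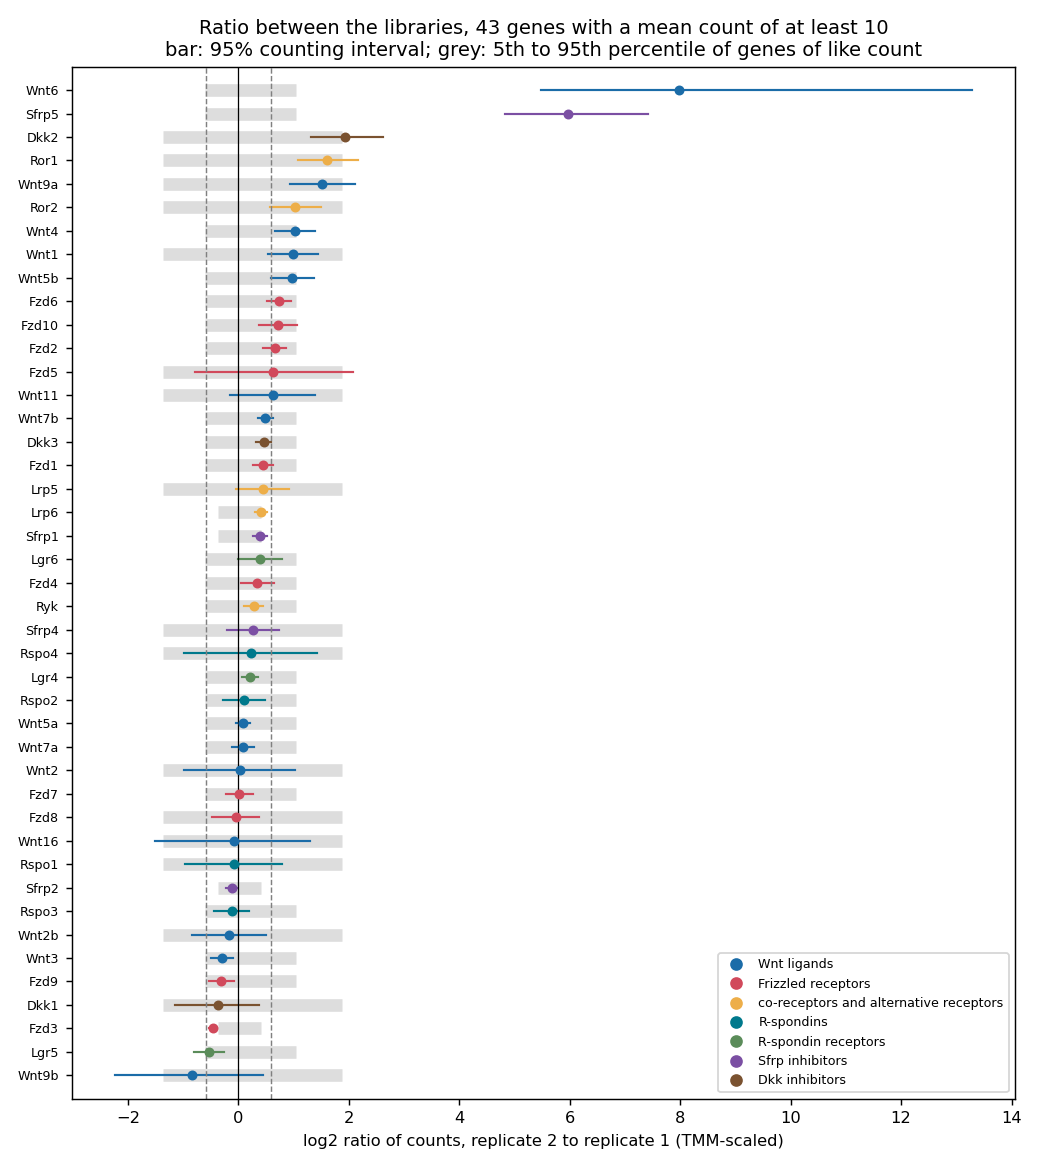
Log2 ratio of replicate 2 to replicate 1 for 43 genes, sorted, with the 95% counting interval as a bar, the central range (5th to 95th percentile) of all genes of like count in grey and 1.5-fold as dashed lines. Wnt6 and Sfrp5 stand far to the right of the grey range, and most other points lie inside it.

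Wnt6 and Sfrp5 were almost undetected in replicate 1 and well above 1 TPM in replicate 2. Wnt6 (chromosome 1, 74771892 to 74785322, GRCm38) had 1 count in replicate 1 and 199 in replicate 2, or 0.06 and 6.87 TPM, a ratio of 252 [44.7 to 10000]. Sfrp5 (chromosome 19, 42197971 to 42202252, GRCm38) had 6 and 297 counts, or 0.16 and 11.02 TPM, a ratio of 62.7 [28.5 to 172]. Of 17623 gene rows, 27 had a larger ratio than Wnt6 and 34 a larger one than Sfrp5, and 25 of these have 0 counts in replicate 1 and so no finite ratio. The rank of Wnt6 itself rests on its 1 count in replicate 1. Their log2 ratios were 7.98 and 5.97 from counts, and 5.45 and 5.42 from TPM with a pseudocount of 0.1, which shrinks ratios of low values. An antisense gene that overlaps Wnt6, Gm29539, had 0 counts in both libraries, and no annotated gene overlaps Sfrp5. This does not hold for every member. Sfrp2 overlaps the antisense gene Gm26771 (157 and 49 counts), and Wnt5b the coding gene Fbxl14 on the other strand (174 and 124 counts). Whether reads were shared there was not tested.

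The other members past 1.5-fold in replicate 2 differed less. Dkk2 was 3.84-fold higher [2.48 to 6.12], the Wnt5a receptor Ror1 3.05-fold [2.11 to 4.47], Wnt9a 2.84-fold [1.91 to 4.31], Ror2 2.03-fold [1.48 to 2.81] and Wnt4 2.03-fold [1.59 to 2.61]. Wnt1 was 1.98-fold higher [1.45 to 2.72] and Wnt5b 1.98-fold [1.51 to 2.60]. The receptors Fzd6, Fzd10 and Fzd2 followed, with Fzd6 at 1.67-fold [1.44 to 1.94], Fzd10 at 1.65-fold [1.30 to 2.09] and Fzd2 at 1.58-fold [1.37 to 1.81]. Fzd5 and Wnt11 passed 1.5-fold with intervals that held 1, from 0.583 to 4.23 and from 0.905 to 2.63. Of these, Dkk2 lay just above the central range of genes of like count, at a log2 ratio of 1.94 beside a 95th percentile of 1.87, and the rest lay inside it.

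Markers of tissue around the neural tube also differed between the libraries, most lists upward in replicate 2 and skeletal muscle the other way. These lists were chosen with earlier results of these data known, and 2 libraries cannot show whether values move together. Genes of meninges and fibroblasts summed to 126.46 TPM in replicate 1 and 1164.09 in replicate 2, with 10 of 11 at least 2-fold higher in replicate 2. Dorsal root ganglion genes summed to 37.03 and 210.53 TPM (8 of 9 at least 2-fold higher) and Schwann cell genes to 15.41 and 50.24 TPM (5 of 7), with Cdh19 at 0 counts in replicate 1. Endothelial genes summed to 141.46 and 277.45 TPM, with 8 of 9 at least 1.5-fold higher in replicate 2. Pericyte genes summed to 112.8 and 247.5 TPM, a gap mostly from Vtn (73.42 and 187.92 TPM), and 3 of 7 passed 1.5-fold, while Notch3 had a ratio of 0.952. Skeletal muscle genes were lower in replicate 2 (50.16 and 25.16 TPM), with 8 of 10 at least 1.5-fold higher in replicate 1. Choroid plexus genes summed to 3.51 and 2.98 TPM and floor plate genes to 99.21 and 108.93 TPM. The roof plate list summed to 37.06 and 41.91 TPM, most of it Zic1. Of its 6 genes with enough counts, 4 were at least 1.5-fold higher in replicate 2, beside 10.8% of gene rows. Among rows with a mean count from 10 to under 100 that share was 21.5%. The 4 were Bmp6 (3.18-fold [2.28 to 4.49]), Lmx1a (2.14-fold [1.03 to 4.63], 13 and 22 counts), the member Wnt1, and Msx2. Msx2 was 1.66-fold higher on 16 and 21 counts, with an interval that held 1 (0.826 to 3.41). The median log2 ratio of the 6 was 0.86. Gdf7 (9 and 1 counts) and Wnt3a (5 and 10) were too shallow for a ratio. The part of these tissues in the ratios of Wnt6, Sfrp5, Dkk2 and the others was not tested. In whole tissue, more cells of a type and more RNA per cell cannot be told apart.

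To show the sequence in front of the genes that differed most, the 250 bases upstream of the transcription start are printed for Wnt6, Sfrp5 and Dkk2, and for Sfrp2, the highest gene, which was even between the libraries. They are RefSeq windows of GRCm38.p6, 5′ to 3′ on the gene's strand, at chr1:74771642-74771891 (plus strand), chr19:42202253-42202502 (minus), chr3:132085042-132085291 (plus) and chr3:83766071-83766320 (plus). Capitals mark CpG dinucleotides, the sites of DNA methylation in mammals.
Wnt6: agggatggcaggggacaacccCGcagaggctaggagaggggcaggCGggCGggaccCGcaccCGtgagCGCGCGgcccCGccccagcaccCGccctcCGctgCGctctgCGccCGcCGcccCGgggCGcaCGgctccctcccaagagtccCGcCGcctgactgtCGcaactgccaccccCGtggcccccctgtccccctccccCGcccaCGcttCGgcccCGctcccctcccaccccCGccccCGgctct
Sfrp5: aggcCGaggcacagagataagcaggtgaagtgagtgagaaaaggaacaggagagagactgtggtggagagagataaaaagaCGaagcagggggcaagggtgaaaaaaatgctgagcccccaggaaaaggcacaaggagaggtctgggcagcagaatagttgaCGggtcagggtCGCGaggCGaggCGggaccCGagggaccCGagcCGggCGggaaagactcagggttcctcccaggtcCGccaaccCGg
Dkk2: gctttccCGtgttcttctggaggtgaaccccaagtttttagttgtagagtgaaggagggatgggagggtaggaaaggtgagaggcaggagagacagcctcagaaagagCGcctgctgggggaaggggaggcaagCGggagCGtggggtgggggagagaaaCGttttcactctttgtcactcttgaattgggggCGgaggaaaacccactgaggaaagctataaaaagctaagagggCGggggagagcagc
Sfrp2: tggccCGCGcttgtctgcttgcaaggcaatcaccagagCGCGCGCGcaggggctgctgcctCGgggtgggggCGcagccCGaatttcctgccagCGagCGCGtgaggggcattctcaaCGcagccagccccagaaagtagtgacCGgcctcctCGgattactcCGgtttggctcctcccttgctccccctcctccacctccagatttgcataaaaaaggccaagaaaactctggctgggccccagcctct

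The windows of Wnt6, Sfrp5, Dkk2 and Sfrp2 held 28, 13, 7 and 16 CpG dinucleotides and 79.6%, 59.6%, 55.6% and 63.6% G and C. Over the 35 windows used, of 32 members, the medians were 22 CpG dinucleotides and 66.8% G and C, beside 6 and 52.4% over all 32851 windows of this length. Chromosome 18, where Fzd8 and Wnt8a lie, was left out for the members but not for the comparison with all windows. The windows of the 3 genes that differed most thus ranged from above to below the median of the members. CTTTGAA and CTTTGAT, core words of TCF and LEF sites, were sought on both strands and lay in 3 of 35 member windows (Dkk1, Wnt11 and Wnt5b) and in 7.5% of all windows. None of the printed windows held one. TATAAA on the gene's strand lay in 4 of 35 member windows, the one of Dkk2 among them, and in 7.6% of all. A match is a description of letters and not a site shown to be used.

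In the opposite direction only Wnt9b passed 1.5-fold with TMM scaling, on 18 and 8 counts, and its interval held 1 (1.78-fold, 0.735 to 4.72). Fzd3 was 1.37-fold higher in replicate 1 on 4299 and 2483 counts, a log2 ratio of -0.45, below the 5th percentile of genes of like count (-0.37), but with spike-in scaling the value was 0.1. Lgr5 was 1.44-fold higher in replicate 1 [1.19 to 1.75], a log2 ratio of -0.53, which turned to 0.02 with spike-in scaling. From TPM with a pseudocount of 0.1, Lgr5 was past 1.5-fold (-0.68) and Wnt9b was not (-0.45). Wnt3 (-0.29), Fzd9 (-0.31), Sfrp2 (-0.12), Rspo3 (-0.12) and Dkk1 (-0.37) also lay below 0 with TMM and above 0 with spike-in scaling. Of the 43 genes, 42 lay above 0 on that scale.

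**Figure D3:**
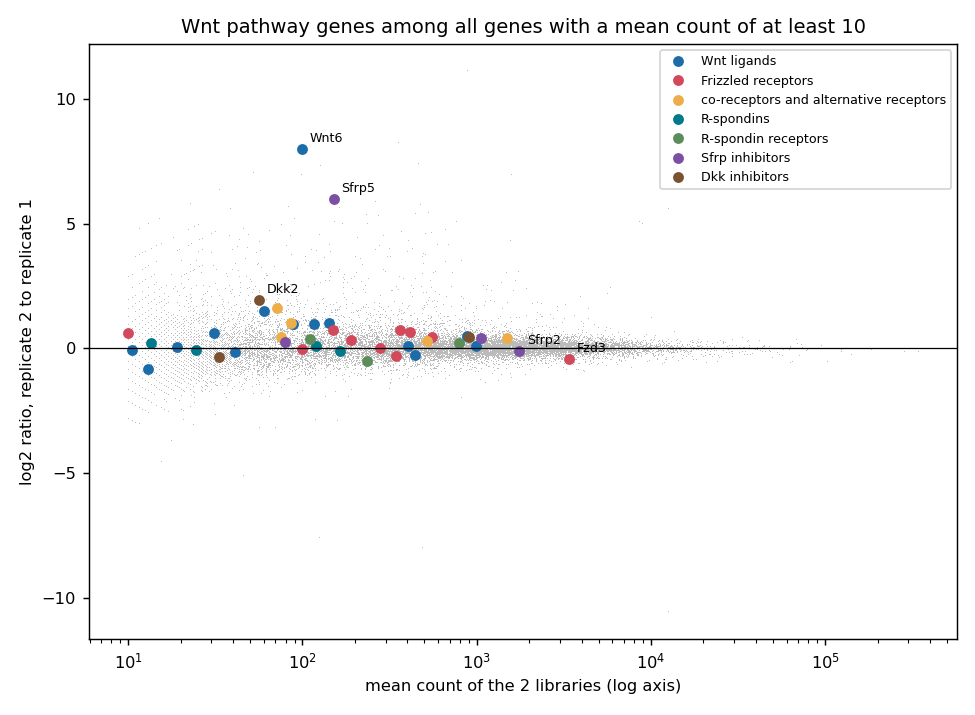
Log2 ratio of replicate 2 to replicate 1 against the mean count on a log axis, with all gene rows of a mean count of at least 10 and counts in both libraries in grey and the 43 members coloured by role. Most members lie in the grey cloud on its upper side, and Wnt6 and Sfrp5 lie above it.

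For the 9 members with a mean of at least 5 TPM and more than 1 annotated transcript, the authors' estimate of each transcript's share was compared between the libraries. The leading transcript was protein-coding and the same in both libraries for all 9, and it held at least 50% of the TPM in both for 8 of them, all but Ryk. Fzd3-202, Sfrp2-201, Wnt7a-201 and Lrp6-201 held between 93.24% and 100% in each library. Wnt5a had 2 main coding transcripts. Wnt5a-202, which begins at 28511405 on chromosome 14, held 60.27% and 52.54% and Wnt5a-201, which begins upstream at 28504750, 36.78% and 36.19%. Wnt5a-204, 337 bases long and not annotated as coding, had 0% in replicate 1 and 10.59% in replicate 2. That share of replicate 2, or 1.46 TPM, rested on 5.19 estimated counts. Wnt7b-201 held 62.79% and 77.45% and Wnt7b-202 32.51% and 21.53%. Lgr4 changed most, as Lgr4-201 held 76.03% in replicate 1 and 51.77% in replicate 2 and Lgr4-202, which shares both ends with it, 19.64% and 45.75%. Ryk was spread over 6 transcripts, of which the coding Ryk-201 held 46.56% and 44.28% and Ryk-203 30.35% and 31.21%. These shares are estimates from reads that several transcripts can share, and no counting interval applies to them.

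**Figure D4:**
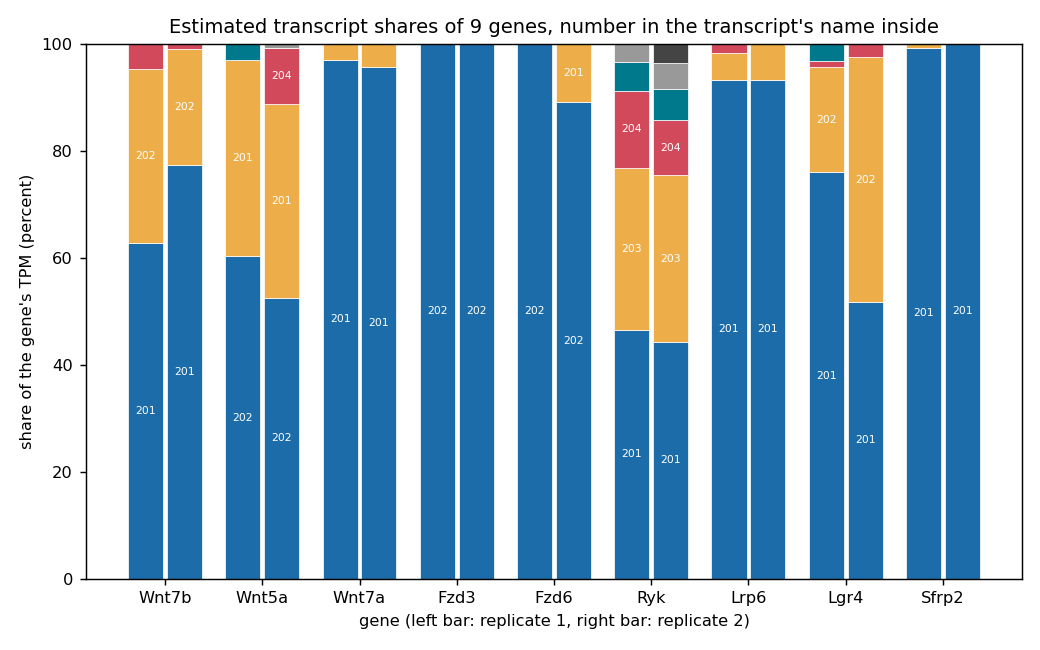
Estimated share of each transcript in its gene's TPM (percent) for 9 genes, with replicate 1 as the left and replicate 2 as the right bar and the number in the transcript's name inside larger segments. The leading segment at the base is the same transcript in both bars of each gene, and Lgr4 shows the widest shift between bars.

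Most other genes of the pathway were present in both libraries, and those that differed by 1.5-fold were all higher in replicate 2. Of 57 listed genes that are not members, 49 reached 1 TPM in both, beside 34.7% of all gene rows and 60.8% of protein-coding rows. Of 54 with enough counts, 12 were at least 1.5-fold higher in replicate 2 and 0 in replicate 1, beside 10.8% and 8.75% of gene rows, and their median log2 ratio was 0.22. All 15 genes of cytoplasmic transduction reached 1 TPM in both and 0 passed 1.5-fold in either direction with TMM scaling (median log2 ratio 0.04). Its highest were the kinase genes Csnk1a1 (249.71 and 283.41 TPM), Csnk1e (153.89 and 189.21) and Gsk3b (164.91 and 139.67) and the beta-catenin gene Ctnnb1 (210.46 and 285.0). The Wnt carrier gene Wls had 35.18 and 62.2 TPM, a ratio of 1.65 [1.57 to 1.75], and Porcn, whose enzyme attaches the lipid to Wnts, 47.15 and 39.86.

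The 12 nuclear effector genes all reached 1 TPM in both libraries, led by Bcl9 (38.08 and 38.21 TPM), Pygo2 (31.56 and 41.07), Tle2 (29.75 and 26.57) and Tle1 (23.67 and 28.8). Among the TCF and LEF factors Tcf7l2 was the highest (11.9 and 13.21 TPM), and Tcf7 (2.79 and 5.74), Lef1 (3.05 and 5.84) and Tcf7l1 (4.14 and 6.51) were each higher in replicate 2, by 1.95-fold [1.55 to 2.47], 1.74-fold [1.45 to 2.1] and 1.52-fold [1.28 to 1.81]. Of 14 genes listed as frequent targets of beta-catenin, 10 reached 1 TPM in both libraries, 4 were at least 1.5-fold higher in replicate 2 and 0 in replicate 1, to be read beside the same 34.7%, 10.8% and 8.75% of gene rows. Tnfrsf19 (12.23 and 21.64 TPM), Nkd1 (12.04 and 16.72), Ccnd1 (9.06 and 13.97) and Apcdd1 (7.11 and 9.82) were the highest. Axin2, the feedback inhibitor most used as a readout of the pathway, had 5.28 and 7.47 TPM, a ratio of 1.17 [0.994 to 1.39]. Sp5 (14 and 102 counts) and Notum (31 and 124 counts), both direct targets in many tissues, were 9.23-fold [5.25 to 17.5] and 5.07-fold [3.39 to 7.77] higher in replicate 2, and Tnfrsf19 and Lef1 were the other 2 targets past 1.5-fold. Lgr5 and Dkk1, which are both members and listed targets, lay below 0 in log2 ratio, as given above.

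Among other extracellular modulators Frzb, the Sfrp relative also called Sfrp3, was the highest (33.18 and 27.98 TPM), then Tpbg (17.41 and 20.46), Sostdc1 (8.42 and 17.43) and Draxin (10.43 and 11.29), a repellent of axons. The ligases Znrf3 (7.59 and 6.09 TPM) and Rnf43 (0.55 and 0.93) were unequal in level. For signals to vessels, Tspan12 had 67.73 and 72.01 TPM, the Norrin gene Ndp 9.92 and 9.55, and Reck 5.03 and 7.49, while Adgra2, the partner of Reck in the response to Wnt7a and Wnt7b, had 0.69 and 1.42, a ratio of 2.08 [1.54 to 2.82]. Of other Wnt-binding receptors, Gpc3 (26.26 and 95.41 TPM) and Ptk7 (6.09 and 19.16) were 3.41-fold [3.18 to 3.66] and 2.94-fold [2.65 to 3.27] higher in replicate 2, Gpc4 had 8.41 and 12.98, and Musk stayed at 0.12 TPM or less. As above, the endothelial and meningeal markers were higher in the same library, and their part was not tested.

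**Figure D5:**
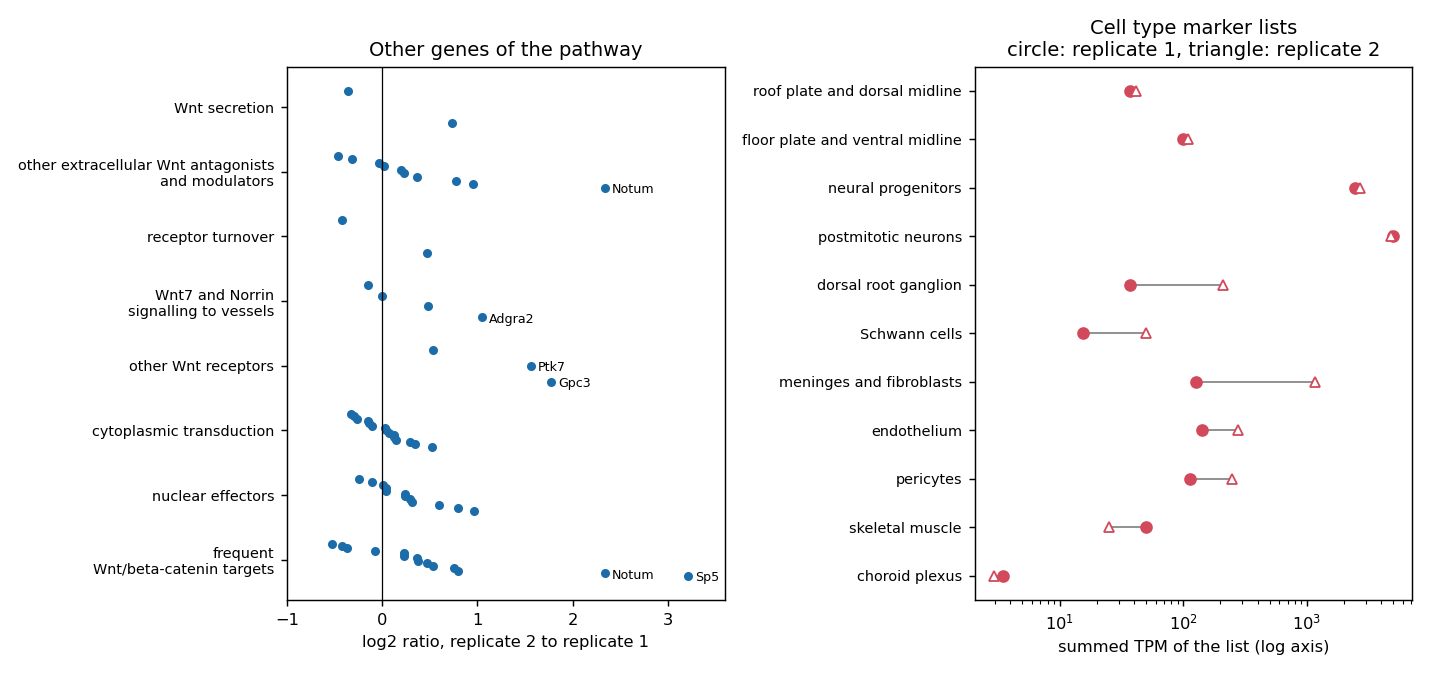
Left: log2 ratio of replicate 2 to replicate 1 for listed pathway genes that averaged 10 counts or more, by list, with genes past 2-fold named. Right: summed TPM of each cell type marker list on a log axis, replicate 1 as circles and replicate 2 as triangles; the meninges and ganglion lists show the widest gaps, and the neuron and progenitor lists nearly coincide.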

How the data were processed

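Total RNA was measured in 2 libraries of 1 group. Each library was quantified separately against mm10 and GENCODE M4, per the texts deposited with the files. For aligner, quantifier and strand, the setting was not given in the sources used here. Expected counts, as the authors deposited them, are estimated and carry no normalization. The deposited TPM values are scaled over all rows to a common sum, per the file headers. FPKM, deposited beside them, also corrects for length and depth and served as an alternative. The deposited percent values give each transcript's share of its gene, per the file headers.

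Symbols and coordinates came from GENCODE M21 (GRCm38, the assembly of mm10) by identifier without version; 42462 of 43346 gene rows matched. Expected counts were rounded to whole numbers. Library sizes over gene rows were scaled by TMM (edgeR 4.0.16, R 4.3.3), and DESeq2 1.42.0 size factors, spike-in totals and total counts were alternatives. Ratios needed a mean count of at least 10. Intervals are exact (95%) and, with the limit of 3 counts for a count of 0, cover counting error only, since reads of amplified RNA are not independent molecules. No test was run, because 2 libraries of 1 group allow none. The ratio step was tested on simulated counts that held only counting error and known folds in a few genes. That checks the calculation and cannot show whether TMM scaling suits these 2 libraries. Spans of 16 of 49 members overlap another annotated gene, so reads could be shared where strand was not used. Intervals were computed with SciPy 1.17.1 and figures drawn with matplotlib 3.10.9. The members and lists were chosen with earlier results of these data known. Every member was to be named, with both values where it reached 1 TPM in both libraries and with a ratio where it passed 1.5-fold; of each pathway list the 4 highest genes and those past 2-fold were named, and Lef1, Tcf7, Tcf7l1, Tcf7l2, Axin2 and the marker genes were added after their values were seen. The windows printed were also chosen after values were seen. Protein sequences were not used here.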

Additional observations from a re-analysis of the deposited data

How the results depend on the processing

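With 2 libraries, each ratio rests on 1 library a side and no spread within a library could be had. The count of 27 members at 1 TPM in both libraries ranged from 22 at 2 TPM to 35 at 0.5 TPM, and was 24 by FPKM, 29 by posterior mean TPM, 27 in replicate 1 alone and 35 in replicate 2 alone. The 14 members at least 1.5-fold higher in replicate 2 became 29 with spike-in totals, 7 with a mean count of at least 100 and 7 at 2-fold. The number stayed at 14 with DESeq2 size factors, total counts and the TPM ratio, and was 15 with no filter on counts. With the TPM ratio, Wnt7b (log2 ratio 0.59) was among the 14 and Fzd5 (ratio 1.24) was not. The 1 member higher in replicate 1 became 0 with spike-in totals, 0 with a mean count of at least 100 and 0 at 2-fold, and 5 without the filter. The median log2 ratio of 0.34 became 0.89 with spike-in totals, and lay between 0.27 and 0.37 in the other alternatives. Filters and folds change these counts by construction, and the cause of the spike-in shift was not tested. No ratio past 1.5-fold changed direction under DESeq2 size factors, spike-in totals, total counts or TPM. No paired analysis was possible because there is only 1 group. Members under about 10 counts were too shallow for a ratio.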
